A study of Mus musculus with 9 samples.

Results

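The nuclear genes for subunits and assembly factors of cytochrome c oxidase were examined in HC11 cells exposed to 660 nm light. Rows of the gene count table were taken when the gene symbol began with Cox and a digit and did not contain -ps, and Surf1, Sco1, Sco2, Cycs, Coa3, Coa5, Coa6 and Coa7 were added by name. This gave 37 genes of 54532 in the table, of which 35 are annotated as protein-coding and 2, Cox6c2 and Cox20b, as processed pseudogenes. The rule itself uses symbols alone and no measured value, but it was written with earlier results of these data known. Cytochrome c oxidase is the proposed absorber of red light, and the comparisons here ask whether the transcripts of its nuclear parts differed after exposure.

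Cytochrome c oxidase, or complex IV, is the last enzyme of the mitochondrial respiratory chain. It takes electrons from cytochrome c and passes them through copper and haem a centres to oxygen, while pumping protons. Its catalytic core is encoded in mitochondrial DNA and the remaining subunits in the nucleus, so that the enzyme can be completed only when both sets are made, haem a and copper are delivered, and dedicated assembly factors join the parts.

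HC11 is an established mouse mammary epithelial line, and the labels give its strain as C57BL/6. Libraries of total RNA, 3 in each of 3 groups, were compared, from cells grown in DMEM with 10% FBS: untreated cells (Ctrl), and cells exposed to 660 nm light in the groups EpPT1 and EpPT2. Fluence is labelled as 10 J/cm2 in EpPT1 and as 20 J/cm2 in EpPT2, but the treatment protocol describes a laser of 10 mW with 0.5 or 1 J/cm2 and the design text an LED, so no dose is attached to the groups here. The sources used here do not give the time between exposure and lysis, and no genotype or other treatment is named. Both light groups were compared with the same Ctrl libraries, so their differences from Ctrl share that source. Whether libraries of 1 group are separate cultures is not stated, so p-values reflect the spread among these libraries alone, which may be technical.

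Library totals lay between 14549787 and 17228929 counts, and 14471 genes were abundant enough to test. Mitochondrially encoded genes took 6.06 to 7.48% of counts in Ctrl 3, EpPT1 3, EpPT2 2 and EpPT2 3, and 2.74 to 3.62% in the other 5 libraries. The libraries also differed in how counts depended on the GC content of a gene. The slope of log2 level per 10 percentage points of GC was -0.495 to -0.223 in Ctrl, -0.355, 0.179 and 0.368 in EpPT1 and 0.186 to 0.291 in EpPT2. Every EpPT2 slope was above every Ctrl slope, so GC trend and exposure cannot be told apart in that comparison. Values below with the GC trend removed may therefore also lose what follows exposure, and are not corrected estimates. Libraries did not all lie closest to their own group. By chi-square per gene of the counts, the most alike pairs were EpPT2 2 with EpPT2 3 (4.74), EpPT1 2 with EpPT2 1 (5.48), EpPT1 3 with EpPT2 2 (7.4) and EpPT1 3 with EpPT2 3 (8.73), followed by Ctrl 2 with EpPT1 1 (14.5). The other pairs within a group ran from 49.7 to 153. The luminal keratin genes Krt8 (559 to 836 CPM) and Krt18 (760 to 1127 CPM) were high in every library, whereas the epithelial cadherin gene Cdh1 stayed at 0.227 to 0.777 CPM. Among markers of other cells, the fibroblast gene Dcn (733 to 3288 CPM), the fat gene Lpl (231 to 409 CPM) and the macrophage gene Cd68 (8.5 to 102.5 CPM) were also present, but the other markers of these cells were low. The other 6 fibroblast markers were at or below 8.19 CPM, led by Pdgfra, with Col1a2 at or below 0.124 and Thy1 at 0 counts. The other 4 fat markers were at or below 0.396 CPM and the other 4 blood and immune markers at or below 0.807 CPM. The part of such cells in the results was not tested. In bulk RNA, fewer cells of a type and less RNA per cell cannot be told apart. All levels below are counts scaled by TMM to a common library size (CPM), unless said to be unscaled.

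The promoters of 4 genes are shown, because Cox6a1, Cox8a, Cox14 and Cox7a2l had the smallest p values of well-counted members in the comparison of EpPT2 with Ctrl. Each is the RefSeq sequence from 250 bases before to 50 bases after the gene start, on build GRCm38.p6, read in the direction of the gene. The positions are chr5:115348909-115349208 (minus strand) for Cox6a1, chr19:7217567-7217866 (minus) for Cox8a, chr15:99725368-99725667 (plus) for Cox14 and chr17:83514284-83514583 (minus) for Cox7a2l. Capitals mark the letters of 3 motifs searched on both strands: GCGCA, any base (N) and GCGC in a row, the core bound by NRF1, CCGGAAG, an ETS core of the kind bound by GABP, and AAGATGGC, a YY1 core.
Cox6a1: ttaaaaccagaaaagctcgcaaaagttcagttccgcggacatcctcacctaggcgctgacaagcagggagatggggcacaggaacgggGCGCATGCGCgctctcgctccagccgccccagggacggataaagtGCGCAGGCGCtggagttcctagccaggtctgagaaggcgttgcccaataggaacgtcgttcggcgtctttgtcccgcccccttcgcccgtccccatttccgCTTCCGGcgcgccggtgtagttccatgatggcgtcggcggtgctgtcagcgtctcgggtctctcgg
Cox8a: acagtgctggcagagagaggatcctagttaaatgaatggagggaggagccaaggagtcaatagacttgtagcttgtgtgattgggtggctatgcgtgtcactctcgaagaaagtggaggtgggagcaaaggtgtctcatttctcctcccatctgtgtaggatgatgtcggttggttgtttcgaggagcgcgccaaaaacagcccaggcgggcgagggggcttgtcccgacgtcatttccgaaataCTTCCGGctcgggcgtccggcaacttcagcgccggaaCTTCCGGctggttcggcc
Cox14: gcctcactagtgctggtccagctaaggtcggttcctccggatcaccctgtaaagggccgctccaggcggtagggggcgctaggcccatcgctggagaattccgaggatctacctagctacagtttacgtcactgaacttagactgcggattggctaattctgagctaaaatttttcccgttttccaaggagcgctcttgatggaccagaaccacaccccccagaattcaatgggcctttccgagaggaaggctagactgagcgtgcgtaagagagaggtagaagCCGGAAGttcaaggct
Cox7a2l: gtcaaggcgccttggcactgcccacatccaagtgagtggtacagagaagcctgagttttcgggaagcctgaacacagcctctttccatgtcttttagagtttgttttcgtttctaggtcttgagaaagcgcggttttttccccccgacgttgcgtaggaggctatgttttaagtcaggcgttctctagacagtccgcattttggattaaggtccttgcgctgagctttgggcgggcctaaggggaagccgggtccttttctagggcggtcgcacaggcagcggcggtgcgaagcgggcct

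The Cox6a1 promoter carried a pair of NRF1 cores and an ETS core, the Cox8a promoter a pair of ETS cores, the Cox14 promoter 1 ETS core and the Cox7a2l promoter none of the 3 motifs. The RefSeq table held promoters for 27 of the 37 genes, 28 promoters in all. An ETS core was present in 11 of the 28 (39.3%), against 8.86% of all 32851 promoters in the table. The SP1 core GGGCGG was present in 18 (64.3%, against 35.7% of all), the YY1 core in 2 (7.14% against 2.75%), and the NRF1 core in Cox6a1 alone (3.57% against 4.6%). In these 28 promoters 0 sites of 1 motif overlapped a site of another. A match describes letters and not a bound site, and a window without a match says nothing of the factor.

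Of the 37 genes, 28 were abundant enough to test and 9 were not. The tested genes included all 10 common structural subunits, 1 of 7 tissue-restricted subunit isoforms, the supercomplex subunit Cox7a2l, all 3 haem a factors, 6 of 7 copper factors, all 4 factors for COX1 and COX2, both other assembly factors and Cycs. Among the untested genes, Cox6a2 and Sco2 had 0 counts in all 9 libraries, which allows up to 3 counts per library, or 0.174 to 0.206 unscaled CPM, for counting error only. Cox6b2, Cox7b2, Cox8b, Cox8c and Cox20b had 1 to 4 counts over all libraries, Cox4i2 47 and Cox6c2 77. Cox6a2 and Cox8b are the heart and skeletal muscle forms of their subunits, and Cox6b2 and Cox8c are known from testis. The zero for Sco2, a copper chaperone used in most tissues, is uncertain: 829 of its 1253 exonic bases are shared with Ncaph2 on the opposite strand (15687 counts) and 856 with Tymp on the same strand (121 counts), and the sources used here do not give the strand setting of the counting.

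Levels of different genes were compared per kilobase of the principal transcript, as the mean over the 9 libraries. The structural subunits other than Cox5a had the highest mean levels. Cox6a1, a small regulatory subunit in its widespread form, stood at 787 CPM per kb (SD 416, n = 9), and Cox4i1, the widespread form of the largest nuclear subunit, at 778 (SD 70.2). Cox6c followed with 553 and Cox7c with 547 CPM per kb. The range of Cox6a1 over libraries, 279 to 1361 CPM per kb, enclosed that of Cox4i1, 672 to 898, so their order is not settled beyond the spread. The lowest of the 10 structural subunits was Cox5a at 87.4 (SD 25.8), below Cox7b at 162, the supercomplex subunit Cox7a2l at 161.5 and the assembly factor Cox14 at 113. Cox14 was the highest assembly factor, Coa5 stood at 26.3, Surf1 at 24.5, Coa3 at 20.7, Cox10 at 6.16, Cox11 at 3.91 and the copper donor Cox17 at 1.03. The electron carrier gene Cycs stood at 48.5 CPM per kb. Against the length of all exons in the authors' table, Cox6a1 (640 CPM per kb) was still the highest and Cox5a (26.8) still the lowest structural subunit, while Cox6c dropped to 114. By that length Cox7a2l (151.5) stood above Cox6c, Cox5b (110), Cox7a2 (126.6) and Cox7b (133.6), so the place of the structural subunits depends on the length used.

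**Figure D1:**
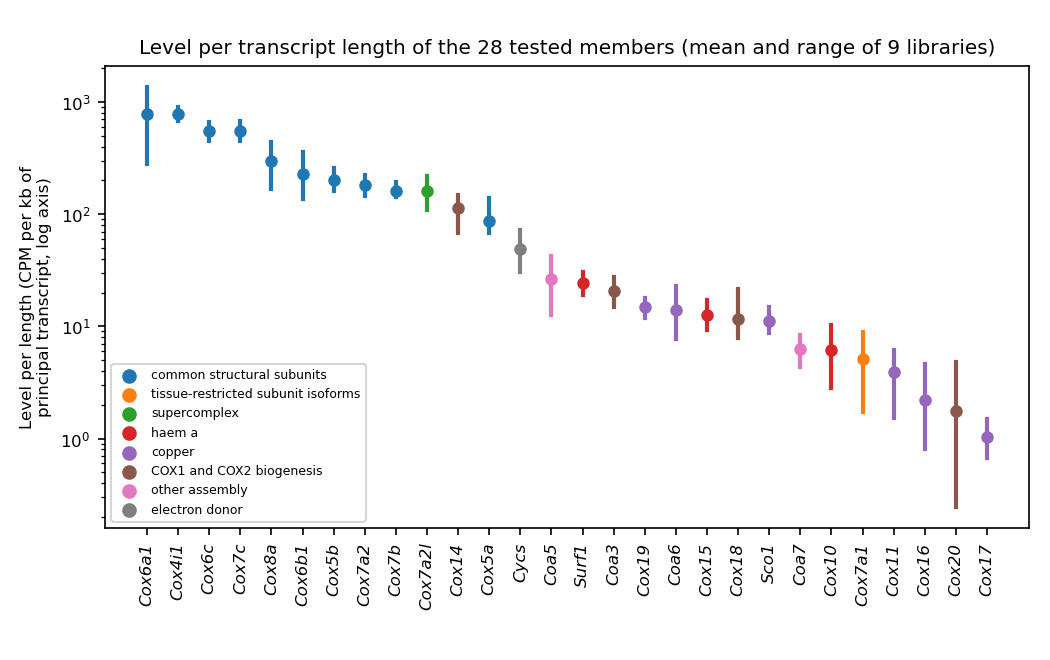
Level per length of the tested genes, in CPM per kilobase of the principal transcript on a log axis. Each point is the mean and each line the range of the 9 libraries, coloured by role. Cox6a1 has the highest mean, 787, next to Cox4i1 at 778, the structural subunit Cox5a (87.4) lies below Cox7a2l (161.5) and Cox14 (113), and Cox17 is lowest at 1.03.

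No member passed the test in any comparison. With edgeR's quasi-likelihood test and Benjamini-Hochberg adjustment at 0.05, 0 of the 28 tested members passed in EpPT1 against Ctrl (0% of 14471 genes did), 0 in EpPT2 against Ctrl (0%) and 0 in EpPT2 against EpPT1 (0%). The lowest edgeR adjusted p of a member was 0.991, 0.376 and 1, respectively. DESeq2 and limma-voom also passed 0 members. At an unadjusted p under 0.05, edgeR gave 2 members in EpPT1 against Ctrl, Cox8a and Cox20, both with higher values, beside 3.93% of all genes (3.01% higher and 0.919% lower). In EpPT2 against Ctrl it gave 5, beside 12.2% of all genes: Cox6a1, Cox8a, Cox14 and Cox20 with higher values (background for higher 6.88%) and Cox7a2l with lower values (background for lower 5.31%). In EpPT2 against EpPT1 it gave 0, beside 0.214% (0.0691% higher and 0.145% lower). At that level DESeq2, which tested 35 members, gave 3, 6 and 0 of them, beside 2.55%, 7.28% and 0.275% of all genes it tested. With limma-voom there were 1, 4 and 0, beside 2.81%, 12.1% and 0.152%. In the edgeR counts, Cox20 entered the test only through light libraries with more counts than Ctrl. Its place among the members named is therefore no support for a difference.

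These unadjusted counts moved with the settings, and the share of all genes often moved with them. In EpPT1 against Ctrl there were 7 members without EpPT1 1, beside 13.3% of all genes. There were 0 without Ctrl 3 (4.26% of genes) or EpPT1 2 (1.55%), and 1 without Ctrl 1 (2.38%), EpPT1 3 (1.7%), EpPT2 2 (2.55%) or EpPT2 3 (2.59%). In EpPT2 against Ctrl there were 8 without EpPT1 1 (16.3%), 1 without Ctrl 3 (15.1%), and 3 without Ctrl 1 (6.73%), Ctrl 2 (9.75%) or EpPT2 3 (5.75%). Without EpPT1 3, 3 members reached the level in EpPT2 against EpPT1, beside 4.77% of genes. The highest counts came with the mitochondrial share as a covariate, 8 members in EpPT1 against Ctrl (13.6% of genes) and 12 in EpPT2 against Ctrl (24.4%). With the GC trend removed there were 3 members in EpPT1 against Ctrl (1.87% of genes) and 7 in EpPT2 against Ctrl (6.2%). There the share of all genes fell from 3.93% and 12.2% while the member counts rose from 2 and 5. The counts before and after need not hold the same members. In EpPT2 against Ctrl, the log2 fold changes of Cox6a1, Cox8a and Cox14 fell from 1.35, 0.78 and 0.62 to 0.35, 0.12 and 0.25. That of Cox4i1 went from -0.05 to -0.68.

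The members spread to both sides of zero. The median log2 fold change of the 28 was 0.20 in EpPT1 against Ctrl, 0.14 in EpPT2 against Ctrl and -0.02 in EpPT2 against EpPT1, where the medians of all genes tested were -0.02, -0.03 and -0.01. In both comparisons with Ctrl, 15 members had a positive and 13 a negative value. The median standard error of a member's log2 fold change against Ctrl was 0.29, compared with 0.37 for all genes.

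Counting genes whose groups did not overlap, EpPT1 and Ctrl were separate for 1 member, Cox5b, higher in EpPT1, beside 5.26% of all genes (2.73% higher and 2.53% lower). EpPT2 and Ctrl were separate for 11 of 28 members, beside 23.2% of all genes. Of these 11, Cox5a, Cox6a1, Cox6b1, Cox8a, Cox11, Cox16, Cox14 and Coa7 were higher in every EpPT2 library (background for higher 12.3%), and Cox7a2, Cox7c and Cox7a2l were lower in every one (background for lower 10.9%). No member separated EpPT2 from EpPT1 (background 2.45%, of which 1.26% higher and 1.2% lower).

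**Figure D2:**
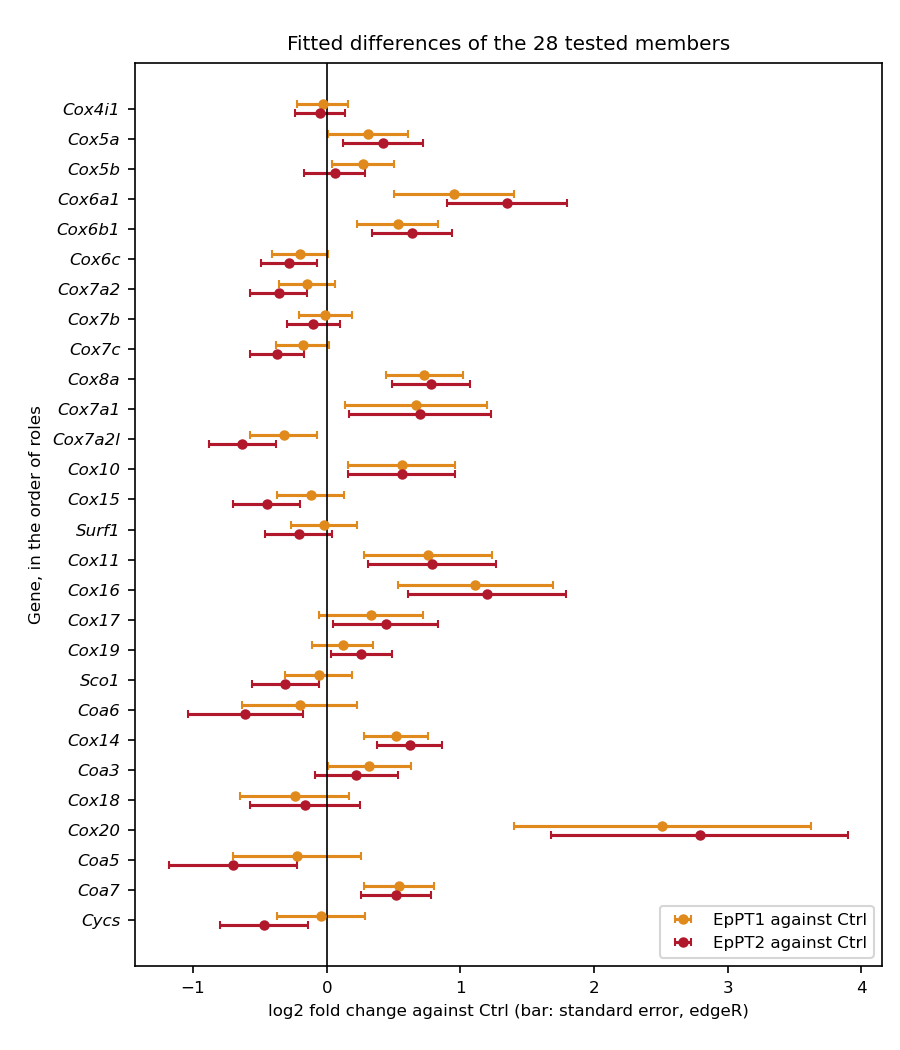
Log2 fold change of each tested member in EpPT1 and EpPT2 against Ctrl, with bars of 1 standard error from edgeR, grouped by role. Cox20, Cox6a1 and Cox16 lie farthest to the right, Coa5 and Cox7a2l are among the lowest in EpPT2, and no point passes the adjusted test.

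Among the structural subunits, Cox6a1 had the widest range. Cox6a1 (ENSMUSG00000041697, chromosome 5, 115345642 to 115348981, GRCm38, minus strand) was at 159, 278 and 301 CPM in Ctrl, 199, 446 and 777 CPM in EpPT1 and 446, 716 and 723 CPM in EpPT2. Every EpPT2 library was above every Ctrl library, whereas EpPT1 1 lay within the Ctrl range and EpPT1 3 was the highest of all. The group means were 246 ± 75.8, 474 ± 290 and 628 ± 158 CPM (SD, n = 3 each). The log2 fold change was 0.95 (SE 0.45) in EpPT1 and 1.35 (SE 0.45) in EpPT2 against Ctrl, with edgeR unadjusted p of 0.06 and 0.013.

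The Cox6a1 value depended on the settings of the fit. Its longest annotated transcript is 62.7% GC, and with a smooth trend of each library's counts with GC removed, its log2 fold change was 0.17 in EpPT1 and 0.35 in EpPT2. Without the filter on low counts, edgeR's adjusted p for Cox6a1 in EpPT2 was 0.0058. That fit held 28724 genes in place of 14471, and 268 of them passed, with Cox6a1 the only 1 of 35 members. Restricted to the 5 libraries with under 5% mitochondrial counts, which leaves 1 EpPT2 library that is assumed to vary like the others, its log2 fold change was 0.58 in EpPT1 and 1.04 in EpPT2.

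Cox8a, the widespread form of subunit VIII, followed the same order of groups. It lies on chromosome 19, 7215158 to 7217616. It was at 91.3, 146 and 101 CPM in Ctrl, 120, 240 and 201 CPM in EpPT1 and 221, 184 and 175 CPM in EpPT2. Ctrl 2 overlapped EpPT1 through EpPT1 1, and all EpPT2 libraries were above Ctrl. The log2 fold change was 0.73 (SE 0.29, edgeR unadjusted p = 0.03) in EpPT1 and 0.78 (SE 0.29, unadjusted p = 0.022) in EpPT2. With the GC trend removed, Cox8a gave 0.27 and 0.12.

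Cox4i1 varied least among the 10. It was at 514, 616 and 687 CPM in Ctrl, 614, 535 and 634 CPM in EpPT1 and 552, 600 and 606 CPM in EpPT2, and its highest library was 1.34 times its lowest. The 3 groups overlapped fully, with log2 fold changes of -0.03 and -0.05 (SE 0.19 each) against Ctrl. With the GC trend removed, however, the Cox4i1 value in EpPT2 was -0.68, and its longest transcript is 58% GC.

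Cox5a, which with Cox4i1 begins the nuclear part of assembly, was at 49.1, 49.3 and 43.6 CPM in Ctrl, 47.5, 81.5 and 46.6 CPM in EpPT1 and 89.0, 51.1 and 49.8 CPM in EpPT2. EpPT1 2 and EpPT2 1 stood apart from the other 7 libraries, which lay within 43.6 to 51.1 CPM. Against Ctrl, Cox5a gave log2 fold changes of 0.31 and 0.42 (SE 0.3). It was 0.76 in EpPT2 with the GC trend removed, and without EpPT1 2 it was -0.01 in EpPT1.

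The remaining structural subunits had values in EpPT2 against Ctrl that ran from -0.37 for Cox7c to 0.64 for Cox6b1 on the log2 scale. Cox7c gave -0.37 (SE 0.2), Cox7a2 -0.36 (SE 0.21), Cox6c -0.28 (SE 0.21), Cox7b -0.1 (SE 0.2), Cox5b 0.06 (SE 0.23) and Cox6b1 0.64 (SE 0.3). Cox7c was 0.01 with the GC trend removed, and Cox6c was 0.03 in the libraries with under 5% mitochondrial counts. Processed pseudogenes with at least 90% identity over 180 bases or more held 1937 counts beside the 41761 of Cox7c, so reads of Cox7c may have been divided in the authors' counting.

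Cox5b, a zinc-binding subunit, was at 155, 172 and 156 CPM in Ctrl, 187, 222 and 173 CPM in EpPT1 and 219, 147 and 139 CPM in EpPT2. EpPT1 was above Ctrl by a narrow margin and EpPT2 spanned the Ctrl range, with log2 fold changes of 0.27 and 0.06 (SE 0.23). Its counts are uncertain, since Gm11273, annotated as protein-coding, matches Cox5b at 99.2% over 390 bases and held 1871 counts, beside 24909 for Cox5b. Gm11273 was at 6.39 to 8.33 CPM in Ctrl, 8.48 to 22.4 CPM in EpPT1 and 14.8 to 19.5 CPM in EpPT2, so both light groups were above Ctrl.

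Summed over the 10 structural subunits, the level was 2126, 2408 and 2569 CPM in Ctrl, 2402, 2678 and 2828 CPM in EpPT1 and 2747, 2689 and 2647 CPM in EpPT2. Every EpPT2 library was above every Ctrl library, but without Cox6a1 the sums were 1967 to 2268 CPM in Ctrl, 2050 to 2232 CPM in EpPT1 and 1923 to 2301 CPM in EpPT2, and overlapped. Cox6a1 made up 7.5% (95% Clopper-Pearson interval 7.22 to 7.78), 11.6% and 11.7% of the structural counts in Ctrl. Its share was 8.3%, 16.6% and 27.5% of them in EpPT1, and 16.2%, 26.6% and 27.3% (26.9 to 27.8) of them in EpPT2. Such intervals cover counting error only.

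**Figure D3:**
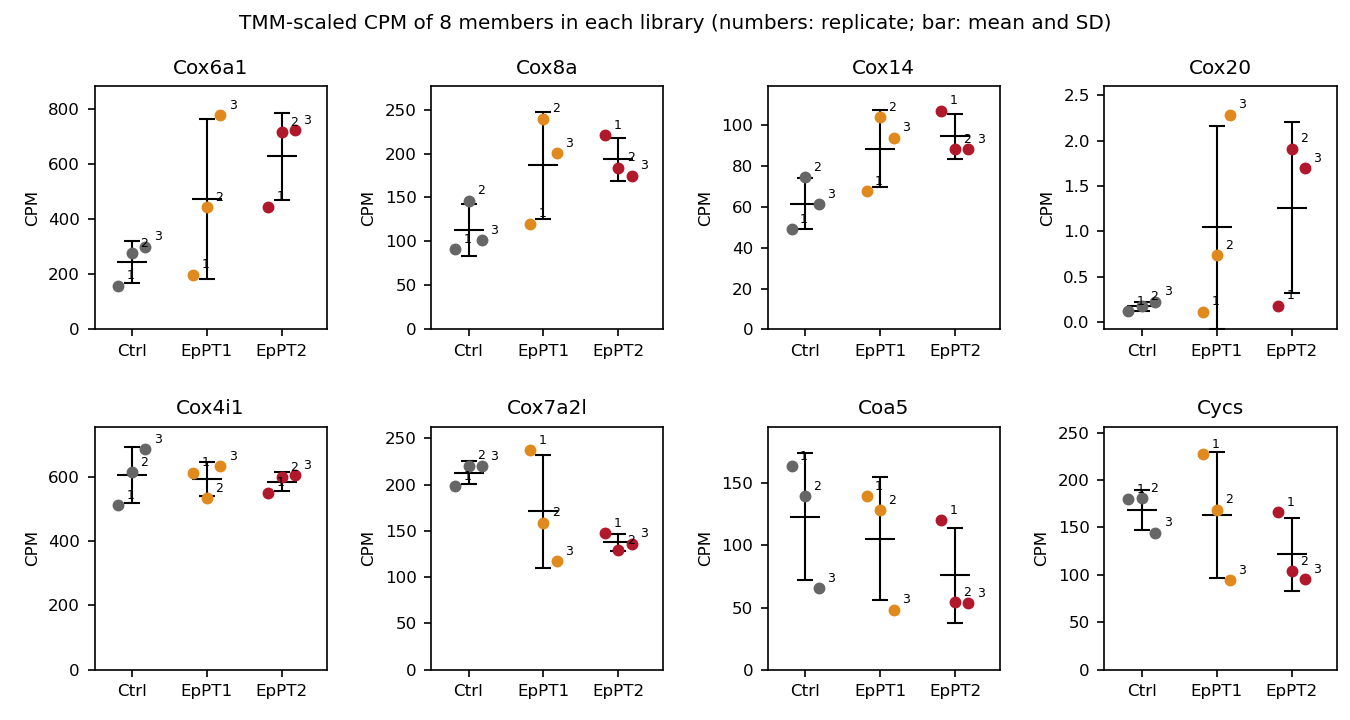
TMM-scaled CPM of 8 members by group, with a numbered point per library and bars for the mean and SD of 3 libraries, each panel with its own linear axis. Cox6a1, Cox8a and Cox14 are higher in every EpPT2 library than in Ctrl, Cox7a2l is lower in every one, and Cox4i1 overlaps throughout; in the Cox20 panel the SD bar of EpPT1 runs below 0.

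In the isoform pairs, the widespread form held nearly all counts. Cox4i2, the form of subunit IV known from lung and induced by low oxygen, had 1, 3 and 7 counts in Ctrl, 3, 3 and 6 counts in EpPT1, and 9, 11 and 4 counts in EpPT2. This was 0.0121 to 0.121% of the counts of Cox4i1 and Cox4i2 together, and Cox4i2 was at or below the floor of 3 counts in 4 libraries. Cox7a1, the muscle form of subunit VIIa, was at 0.683, 1.73 and 1.88 CPM in Ctrl, 1.67, 1.70 and 3.47 CPM in EpPT1 and 1.65, 2.51 and 2.82 CPM in EpPT2, and all groups overlapped. Its share of the counts of Cox7a1 and Cox7a2 ran from 0.488% (0.244 to 0.871) in Ctrl 1 to 3.46% (2.58 to 4.54) in EpPT1 3. For Cox7a1 the log2 fold change was 0.67 in EpPT1 and 0.7 in EpPT2 (SE 0.53 each). Of 5 striated muscle markers, Tnnt2 was at 17.6 to 66.9 CPM, Myh7 had 0 counts and the others were at or below 0.173 CPM, and their part in the Cox7a1 values was not tested.

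Cox7a2l, a relative of subunit VIIa that joins complex III and complex IV into a supercomplex, was the member with lower values in EpPT2 at the smallest p. The gene lies on chromosome 17, 83501919 to 83514333. It was at 199, 221 and 220 CPM in Ctrl, 237, 159 and 117 CPM in EpPT1 and 147, 129 and 136 CPM in EpPT2. EpPT1 spanned the range, with EpPT1 1 above all Ctrl libraries and EpPT1 3 below all EpPT2 libraries, while EpPT2 and Ctrl were separate. Its log2 fold change was -0.32 (SE 0.25, edgeR unadjusted p = 0.24) in EpPT1, -0.63 (SE 0.25, unadjusted p = 0.032) in EpPT2, and -0.31 (SE 0.25) in EpPT2 against EpPT1. With the GC trend removed the value in EpPT2 was -0.65, and without EpPT1 1 the value in EpPT1 was -0.63.

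The counts of Cox7a2l are uncertain in level because the processed pseudogene Gm6969 matches it at 97.7% over 342 bases and held 7765 counts, beside 24720 for Cox7a2l. Gm6969 was at 35.8 to 70.0 CPM in Ctrl, 37.3 to 68.0 CPM in EpPT1 and 39.5 to 64.8 CPM in EpPT2, with all groups overlapping.

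Haem a is made from haem b by Cox10 and then Cox15, and Surf1 helps place it in COX1. Cox15 was at 66.5, 82.2 and 55.8 CPM in Ctrl, 81.1, 59.5 and 47.6 CPM in EpPT1 and 57.8, 44.6 and 47.5 CPM in EpPT2. The groups overlapped, since Ctrl 3 lay below EpPT2 1, and the log2 fold change was -0.12 in EpPT1 and -0.45 in EpPT2 (SE 0.25 each). Cox10, at 8.18 to 29.7 CPM, gave 0.56 in both comparisons with Ctrl (SE 0.4), and 0.17 in EpPT2 with the GC trend removed. Surf1, at 22.5 to 35.6 CPM, gave -0.02 and -0.21 (SE 0.25).

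The copper factors had values on both sides of zero. Cox17 hands copper to Sco1 and Cox11, which pass it to COX2 and COX1, and Coa6, Cox16 and Cox19 take part in the same delivery. Cox16 had the largest log2 fold changes of the 6 tested, at 3.97, 1.61 and 1.73 CPM in Ctrl, 1.96, 9.17 and 4.64 CPM in EpPT1 and 7.62, 4.29 and 4.94 CPM in EpPT2, with log2 fold changes of 1.11 (SE 0.58) and 1.2 (SE 0.59). Cox11, at 1.85 to 7.59 CPM, gave 0.76 and 0.79 (SE 0.48). For both, every EpPT2 library was above Ctrl and EpPT1 1 lay within or below the Ctrl values. Both share exonic sequence with other genes, Cox11 688 of 1423 bases with Tom1l1 on the opposite strand and Cox16 2130 of 3751 bases with Gm20498 on the same strand, so their counts are uncertain. Coa6 shares 105 of 747 bases with Tarbp1 on the opposite strand (3753 counts against 1520 for Coa6). Cox17 shares 257 of 5773 with Gm21987 on the same strand (0 counts). Members of other roles also had overlaps, such as Cox15 (444 of 4909 bases with Entpd7) and Surf1 (137 of 1753 with Surf2). In EpPT2 against Ctrl, Cox17 gave 0.44 (SE 0.39), Cox19 0.26 (SE 0.23), Sco1 -0.31 (SE 0.25) and Coa6 -0.61 (SE 0.43), with groups that overlapped.

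Cox14 and Coa3 hold newly made COX1 before it enters the complex, and Cox18 and Cox20 insert and guard COX2. Cox14, on chromosome 15 at 99725618 to 99728136, was at 49.2, 74.5 and 61.2 CPM in Ctrl, 67.6, 104 and 93.9 CPM in EpPT1 and 107, 88.5 and 88.2 CPM in EpPT2. All EpPT2 libraries were above Ctrl, and EpPT1 1 lay within the Ctrl range. Cox14 had a log2 fold change of 0.52 (SE 0.24, edgeR unadjusted p = 0.053) in EpPT1 and 0.62 (SE 0.24, unadjusted p = 0.026) in EpPT2, or 0.27 and 0.25 with the GC trend removed. Its partner Coa3, at 13.1 to 24.4 CPM, gave 0.32 and 0.22 (SE 0.31), and -0.07 to 0.49 in EpPT2 over the alternatives. Cox18, at 10.6 to 28.5 CPM with its highest value in Ctrl 3, gave -0.24 and -0.16 (SE 0.41), and 0.44 in EpPT2 without Ctrl 3.

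Cox20 had 2, 3 and 3 counts in Ctrl, 2, 13 and 33 counts in EpPT1, and 3, 29 and 24 counts in EpPT2, so that 1 library of each light group was at the Ctrl level. Cox20 passed the filter on low counts only through EpPT1 2, EpPT1 3, EpPT2 2 and EpPT2 3, so it could be tested only because these were higher. Its fitted log2 fold changes of 2.51 and 2.79 (SE 1.11 each) rest on these few counts and on the prior count of the fit. In EpPT2 the value was 0.27 in the libraries with under 5% mitochondrial counts. Of its 883 exonic bases, 804 are shared with Hnrnpu on the opposite strand, which had 248783 counts against 112 for Cox20, and with the strand setting not given, reads of the 2 genes cannot be told apart.

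Coa5 and Coa7 act in early assembly, and Cycs encodes cytochrome c, which also starts apoptosis when it leaves the mitochondrion. Coa5 was at 164, 140 and 65.8 CPM in Ctrl, 140, 129 and 48.4 CPM in EpPT1 and 120, 54.4 and 53.4 CPM in EpPT2. Cycs was at 180, 181 and 145 CPM in Ctrl, 227, 169 and 94.7 CPM in EpPT1 and 166, 104 and 95.6 CPM in EpPT2. For both genes the 4 libraries with over 5% mitochondrial counts were the 4 lowest, whatever their group, and the groups overlapped. In EpPT2 against Ctrl the log2 fold change was -0.7 (SE 0.48) for Coa5 and -0.47 (SE 0.33) for Cycs. Gm10053, annotated as protein-coding, matches Cycs at 99.9% over 946 bases and held 995 counts, beside 21800 for Cycs, so reads may be divided between them. Coa7 gave 0.54 and 0.52 (SE 0.26) in EpPT1 and EpPT2, from 16.3 to 20.6 CPM in Ctrl, 19.3 to 30.9 in EpPT1 and 22.1 to 30.8 in EpPT2, where it was separate from Ctrl.

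In EpPT2 against EpPT1 the smallest p values belonged to Cox15, Cycs, Cox7a2l and Cox7a2, all with lower values in EpPT2. The log2 differences were -0.33 (SE 0.25) for Cox15, -0.43 (SE 0.33) for Cycs, -0.31 (SE 0.25) for Cox7a2l and -0.22 (SE 0.21) for Cox7a2. Cox7a2, at 121 to 141 CPM in Ctrl, was at 146, 120 and 96.7 CPM in EpPT1 and 116, 96.9 and 99.1 CPM in EpPT2, and the light groups overlapped for all 4 genes.

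**Figure D4:**
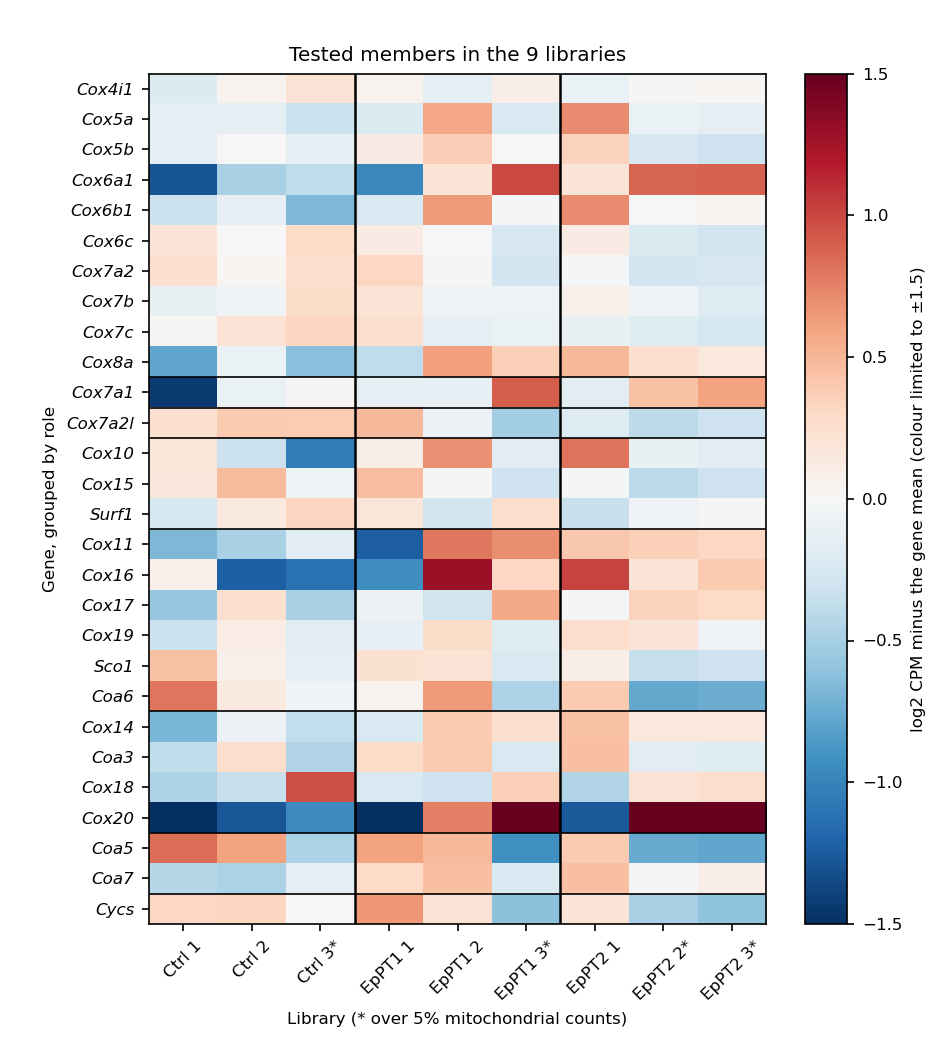
Log2 CPM of each tested member in each library, as the difference from the mean of that gene over the 9 libraries, with genes grouped by role and colours limited to the range shown on the bar. Coa5 is low in Ctrl 3, EpPT1 3, EpPT2 2 and EpPT2 3. Cycs is low in EpPT1 3, EpPT2 2 and EpPT2 3 and at its mean in Ctrl 3. Cox5a, Cox6b1 and Cox8a are high in EpPT1 2 and EpPT2 1.

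Much of the variation between libraries did not follow the groups. Cox18 and Cox7a1 were higher in all 4 libraries with over 5% mitochondrial counts than in any of the other 5 (16.5% of all genes tested were), and Cycs, Coa5, Cox15, Sco1 and Coa6 were lower in all 4 (18% of all genes). Together these were 7 of 28 members, beside 34.5% of all genes, so members did not follow this split more often than genes at large. EpPT1 2 and EpPT2 1 were the highest pair for Cox5a, Cox5b, Cox6b1, Cox8a, Cox10, Cox16, Cox19, Cox14, Coa3 and Coa7, which is 10 of 28 members beside 13.1% of all genes. These are descriptions of libraries, with no test. The ratio of the highest to the lowest library was under 1.5 for 3 members, at least 2 for 16 and at least 4 for Cox6a1, Cox7a1, Cox11, Cox16 and Cox20. Across the 28 members, Spearman's correlation of the log2 fold change with the GC content of the longest transcript was 0.2 in EpPT1 and 0.29 in EpPT2, and across 14458 genes it was 0.6 and 0.62. Genes are not independent replicates, and the values share the same libraries.

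The 3 mitochondrially encoded subunits varied mostly within groups. mt-Co1, which carries the haem a centres, was at 15860, 20870 and 62310 CPM in Ctrl, 20900, 11930 and 43300 CPM in EpPT1 and 15110, 39200 and 46130 CPM in EpPT2. Its level was high in the same 4 libraries as the mitochondrial share, to which it contributes, and all groups overlapped. Against Ctrl, its log2 fold change was -0.38 in EpPT1 and 0.02 in EpPT2 (SE 0.61 each). mt-Co2, which holds the first copper site, averaged 52.9 ± 23.3, 84.5 ± 43.2 and 77.7 ± 34.3 CPM in Ctrl, EpPT1 and EpPT2 (SD, n = 3 each), and mt-Co3 averaged 55.1 ± 30.5, 49.6 ± 30.4 and 47.4 ± 17.5 CPM. mt-Co1 held 98.8 to 99.7% of the counts of the 3 genes, with a mean over the 9 libraries of 30620 CPM beside 71.7 for mt-Co2 and 50.7 for mt-Co3. The cause of this gap was not tested. Similar copies were searched for the members only, so the levels of mt-Co2 and mt-Co3 are uncertain. In the sum of the 3 genes, mt-Co1 counts almost alone. The ratio of the 3 mitochondrial genes to the 10 nuclear structural genes in summed CPM ran from 4.51 in EpPT1 2 to 24.3 in Ctrl 3, a wider range within groups than between their means.

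**Figure D5:**
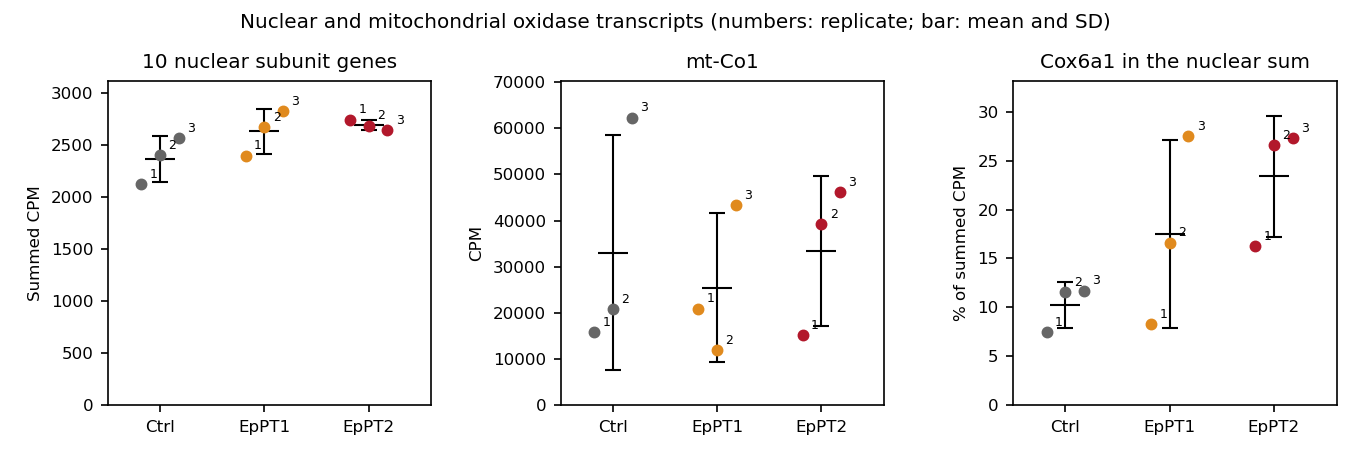
Summed CPM of the 10 nuclear structural subunits, CPM of mt-Co1, and the share of Cox6a1 in the nuclear sum, with a numbered point per library and bars for the mean and SD of 3 libraries. The nuclear sum stays between 2126 and 2828, whereas mt-Co1 runs from 11930 to 62310 and overlaps between groups, and the Cox6a1 share is 16.2% or more in every EpPT2 library.

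Other genes of the pathway were read from lists chosen by function, and none passed the test in any comparison. Of 23 symbols listed for further assembly and translation factors and subunits, 20 were in the count table and 19 were tested. In EpPT1 against Ctrl, 0 reached an edgeR unadjusted p under 0.05, beside 3.93% of all genes. In EpPT2 against Ctrl 2 did, Cmc1 and Lrpprc, both lower, beside 12.2%. Cmc1, a COX1 assembly factor, was at 38.7, 38.2 and 43.8 CPM in Ctrl, 36.1, 26.3 and 14.8 CPM in EpPT1 and 22.5, 16.6 and 15.1 CPM in EpPT2. All EpPT1 and EpPT2 libraries were below all Ctrl libraries, with a log2 fold change of -1.15 (SE 0.32, edgeR unadjusted p = 0.005) in EpPT2. The median log2 fold change of that list was 0.04 in EpPT1 and -0.01 in EpPT2.

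Of 9 partners of cytochrome c, 8 were tested. Cyc1, the cytochrome of complex III that gives electrons to cytochrome c, was at 67.1, 62.6 and 53.2 CPM in Ctrl, 68.2, 131 and 101 CPM in EpPT1 and 129, 93.2 and 95.3 CPM in EpPT2. Both light groups were separate from Ctrl, EpPT1 1 by a narrow margin, and the log2 fold change of Cyc1 in EpPT1 was 0.71 (SE 0.26, edgeR unadjusted p = 0.022). In the same list Apaf1 was lower in EpPT1, and Cyc1 and Endog higher in EpPT2, at an unadjusted p under 0.05, which is 2 of 8 in each comparison, beside 3.93% and 12.2% of all genes. The list medians were -0.16 and -0.17.

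All 6 genes of copper import and handling were tested, and none reached an unadjusted p under 0.05 in EpPT1. In EpPT2, Ccs and Sod1 were higher and the copper pump gene Atp7a lower at that level, which is 3 of 6 beside 12.2% of all genes, with list medians of 0.13 in EpPT1 and 0.29 in EpPT2. Atp7a was at 10.2, 10.5 and 11.9 CPM in Ctrl, 11.6, 8.27 and 8.60 CPM in EpPT1 and 3.23, 8.38 and 6.42 CPM in EpPT2, where EpPT2 1 was far the lowest. The log2 difference of Atp7a between EpPT2 and EpPT1 was -0.66 (SE 0.36, edgeR unadjusted p = 0.098).

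Of 9 transcription factors and coactivators of nuclear respiratory genes, all were tested. Esrra, an orphan nuclear receptor that drives such genes, was at 12.5, 27.9 and 21.4 CPM in Ctrl, 18.7, 51.4 and 63.6 CPM in EpPT1 and 49.5, 63.0 and 56.0 CPM in EpPT2. EpPT1 1 lay within the Ctrl range and all EpPT2 libraries above it, with log2 fold changes of 1.11 (SE 0.43, edgeR unadjusted p = 0.026) and 1.45 (SE 0.43, unadjusted p = 0.0072). Nrf1 was higher in EpPT1, and Ppargc1a and Gabpa lower in EpPT2, at an unadjusted p under 0.05. With Esrra this made 2 of 9 in EpPT1, beside 3.93% of all genes, and 3 of 9 in EpPT2, beside 12.2%. Gabpa, the DNA-binding part of GABP, was at 83.9, 78.9 and 75.1 CPM in Ctrl, 93.6, 64.5 and 55.5 CPM in EpPT1 and 57.8, 50.01 and 56.2 CPM in EpPT2, below Ctrl in every EpPT2 library. The list medians were -0.16 and -0.39.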

How the data were processed

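RNA-seq of 9 HC11 libraries was read from the table of raw counts per gene that the authors deposited, whole numbers with 1 column per library. Bowtie 0.12.2 and the mouse build mm8 are named, per the submitters' processing notes. Coordinates in the deposited table equal those of GENCODE release M21 (GRCm38) for 53499 of 54409 gene IDs found there (98.3%), so GRCm38 is given here. The sources used here do not give the counter, its strand setting or any filter. The table's gene length column was used only for levels per length. No column of per-sample values was left unmapped. Although the series title says human, organism labels and gene IDs are mouse.

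Libraries were grouped by title. All 9 libraries entered 1 edgeR 4.0.16 fit of the counts (R 4.3.3) with TMM scaling and filterByExpr, no block, 6 residual degrees of freedom and a biological coefficient of variation of 39.3%. Differences were tested with the two-sided quasi-likelihood test and Benjamini-Hochberg adjustment over 14471 of 28724 genes with a count. Standard errors came from the log2 fold change and its F statistic. The fit was tested on simulated counts, drawn independently for each gene and library. They lacked the differences in mitochondrial share seen here, so they do not show how the fit behaves with them. No pair of libraries matched within counting noise. Named by rule were the 4 members with the smallest p in each comparison, the highest and lowest structural subunits per length, detected isoform pairs, and 2 pathway genes per comparison. Further members were described by role, after their values were seen. The members and lists were chosen with earlier results of these data known. Matches to copies came from blastn 2.17.0 on GENCODE transcripts, with limits chosen after seeing the matches. Per-length levels used the longest APPRIS principal transcript, and GC content the longest transcript of any kind.

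Alternatives were DESeq2 1.42.0 size factors, limma-voom (limma 3.58.1), DESeq2 itself, no filter on low counts, a minimum of 5 CPM in at least 3 libraries, a replicate block, only the 6 libraries compared, each library left out, the mitochondrial share as a covariate, only libraries under 5% mitochondrial counts, and a spline on GC with 5 degrees of freedom removed per library as an offset.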

Additional observations from a re-analysis of the deposited data

How the results depend on the processing

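No member passed the adjusted test under any alternative, except Cox6a1 in EpPT2 against Ctrl without the filter on low counts. There it was 1 of 35 members tested, beside 268 of 28724 genes. Over all genes, the number past the test, 0 in each comparison, became 32 for EpPT1 and 268 for EpPT2 against Ctrl without the filter, and 2 between EpPT2 and EpPT1. With DESeq2 it became 1 and 59 in the comparisons of EpPT1 and EpPT2 with Ctrl. Leaving out 1 library at a time gave 0 to 2 genes in EpPT2 against Ctrl, with 2 without EpPT1 1. The cause was not tested. The log2 fold change of Cox6a1 in EpPT2 ran from 0.35, with the GC trend removed, to 1.54. Its sign was kept under all alternatives. Every member at 0.5 or more in size against Ctrl (10 members in EpPT1 and 13 in EpPT2) also kept its sign in the alternatives that fitted it. Such members were taken by size in these same data, so a kept sign has little weight. Among all members, 14 of 28 in EpPT1 and 8 in EpPT2 changed sign under at least 1 alternative.

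With the replicate block, 0 genes and 0 members passed in each comparison, and the lowest adjusted p of a member was 0.74, 0.068 and 1. At an unadjusted p under 0.05 there were 4 members in EpPT1 and 8 in EpPT2 against Ctrl, beside 6.54% and 21.1% of all genes. The numbers did not pair the samples throughout: deviations of same-numbered libraries correlated at -0.64 to 0.73, and 4 of 9 libraries matched their own number best. Libraries numbered 3 correlated at 0.63 to 0.73 with each other, but EpPT2 2 also correlated with Ctrl 3 (0.64) and EpPT1 3 (0.67). Whether same-numbered libraries share a batch was not tested. Of the 9 untested members, 7 had 4 counts or fewer in all, and no difference was detectable for them at this depth.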
